A study of Arabidopsis thaliana with 33 samples.

Results

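Gene RNA was compared between the Arabidopsis thaliana mutants hhp1 and hda6, each set against the wild type (WT) of its own table. The genes described are those that the authors' Cuffdiff run could test in both tables, 20924 of the 32823 genes listed, of which 20859 lie on the nuclear chromosomes and 65 on the organelle genomes. For each gene D is the log2 change of hda6 against WT minus the log2 change of hhp1 against WT, with 1 added to every FPKM (fragments per kilobase of transcript, scaled to mapped fragments). A positive D means that the gene stood higher in hda6 than in hhp1, both relative to WT.

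The study addresses a protein complex that, from the title, joins the histone deacetylase HDA6 with a domesticated Harbinger transposase. Groups used here are Col-0 (WT), the T-DNA insertion line hhp1 and the T-DNA insertion line hda6, with 3 RNA-seq samples each, together with H3 acetylation (H3ac) ChIP-seq of hda6 and WT with 3 samples each. All were untreated 12-day-old whole seedlings on 1/2 MS medium with days of 16 h at 24 °C and nights of 8 h at 22 °C. RNA values of 2 further genotypes, mbd124 and sant1234-null, are quoted for single genes, and the deposited tables hold 1 value per genotype, so that no spread over replicates can be shown.

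HDA6 removes acetyl groups from histone tails, and acetylated H3 is generally found at the start of transcribed genes. In Arabidopsis HDA6 is known for keeping repeats, some ribosomal RNA genes and a set of protein-coding genes silent. Domesticated transposases are former transposon proteins that have lost the ability to move DNA and serve the host, some of them within chromatin complexes.

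RNA of the targeted genes gave no check of the labels. HDA6 (AT5G63110) was listed by the authors at 17.0 FPKM in WT, 17.1 in hhp1 and 18.8 in hda6, and thus showed no loss of HDA6 RNA in hda6. The labels name no locus for hhp1. AT3G55350, which RefSeq annotates as a PIF / Ping-Pong family transposase, was listed at 6.40 FPKM in WT, 1.88 in hhp1 and 6.07 in hda6, with an adjusted p of 0.119 for hhp1 in the authors' deposited table. AT5G12010, annotated as a nuclease, was listed at 11.4 FPKM in WT, 10.2 in hhp1 and 11.1 in hda6. Below, hhp1 and hda6 therefore stand for the libraries so labelled, and every direction rests on those labels.

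The 21 measured photosynthesis genes were listed at 591 to 6123 FPKM in WT and the 13 measured root markers at 0.619 to 47.8 FPKM. None of 11 seed maturation genes could be tested in both tables. Levels of such unlike genes do not measure the share of RNA from each tissue. None of the 21 photosynthesis genes and 1 of the 13 root markers, LRX1, separated the mutants (4.2% over all genes). In whole seedlings fewer cells of a type and less RNA per cell cannot be told apart.

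Of 20853 genes with a finite change and standard error in both tables, 568 (2.72%) were higher in hda6 than in hhp1 and 307 (1.47%) were lower, and together 4.2% passed, at a Benjamini-Hochberg adjusted p under 0.05 in a normal test of the difference of the 2 log2 changes. D was at least 1 for 421 of the 20924 genes (2.01%), of which 292 passed the test, and at most -1 for 141 (0.674%), of which 89 passed. The median D over all genes was 0.01. The median standard error of a difference was 0.25, and the smallest difference that passed was 0.66 on the log2 scale. The authors' own adjusted p go no lower than 0.00192 in hhp1 and 0.000899 in hda6. Far smaller adjusted p printed below extend a normal curve beyond the range fitted, with 3 samples per genotype. They rank genes and do not measure certainty. At the limit, ERF022 passed with a difference of 0.90 ± 0.29 (SE, adjusted p 0.0493, normal test over all genes with Benjamini-Hochberg adjustment) and RPL18C did not, with 0.77 ± 0.25 (adjusted p 0.0511, same test).

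Among the 568 genes higher in hda6 than in hhp1, the authors' deposited tables call 420 higher in hda6 (6.53% over all genes) and 9 lower (4.91%), and 136 lower in hhp1 (3.29%) and 80 higher (2.89%). Among the 307 genes lower in hda6, they call 226 lower and 0 higher in hda6, and 85 higher and 16 lower in hhp1. These calls share their values with the test, so the counts describe how the separation was made up: most often by a gain or loss in hda6, and in smaller groups by a loss or a gain in hhp1. For 22 genes the authors called the gene lower in hhp1 and higher in hda6, and for 28 genes higher in hhp1 and lower in hda6. Each passed the difference test; AT1G11785, also called lower in hhp1 and higher in hda6, has no test.

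**Figure D1:**
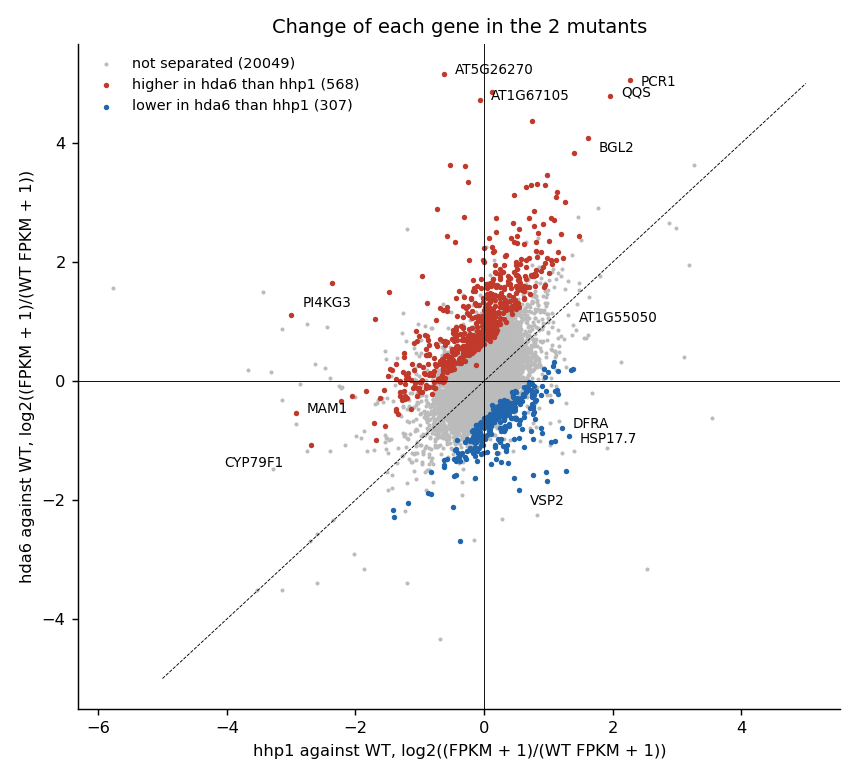
Log2 change against WT of each of the 20924 genes in hhp1 (horizontal) and hda6 (vertical), with 1 added to each FPKM; red and blue points are the 568 and 307 genes that passed the difference test, grey points the other genes, and the dashed line marks equal changes. The red points reach furthest up the hda6 axis, while MAM1, CYP79F1 and PI4KG3 lie far to the left, at low values in hhp1.

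The genes with the highest D were mostly low in WT and hhp1 and far higher in hda6. AT5G26270, an uncharacterized protein-coding gene, was listed by the authors at 3.78 FPKM in WT, 2.16 in hhp1 and 169 in hda6. Its difference was 6.32 ± 0.35 on the log2 scale (adjusted p 1.22e-67, normal test over all genes) and its D was 5.77. AT1G67105, a non-coding RNA gene, was listed at 19.8 FPKM in WT, 19.2 in hhp1 and 550 in hda6, with a D of 4.80. AT5G45095, also uncharacterized, stood at 0.426, 0.565 and 40.6 FPKM in the same order, with a D of 4.74. In these 3 genes hhp1 lay near the WT level while hda6 was far above it. The non-coding genes AT4G04223 and AT5G38005 had the same pattern, at 7.67, 5.11 and 106 FPKM and at 4.37, 3.59 and 53.4 FPKM for WT, hhp1 and hda6. On chromosome 5 the neighbours AT5G35480 and ATMRU1, which lie side by side, rose to 143 and 33.8 FPKM in hda6 and were at 8.75 and 1.87 FPKM in hhp1.

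H3ac at these genes was compared between hda6 and WT. The series also holds H3ac samples of sant1234-null, not used here, and none of hhp1. The authors' H3ac signal over AT5G26270 was 8.50 RPKM (reads per kilobase, scaled to mapped reads) in WT and 45.3 in hda6, from 1050 and 5657 reads. Over AT5G45095 it was 13.5 RPKM in WT and 37.1 in hda6, over AT5G38005 7.51 and 25.4, and over AT1G67105 7.79 and 16.5. Each of these 4 genes carried at least 1 H3ac peak that the authors' deposited DiffBind table lists as higher in hda6, the strongest with log2 folds of 11.18, 4.15, 9.18 and 5.22 in the same order. The centres of those peaks lay 259, 326, 175 and 476 bp downstream of the annotated gene start. The peak at AT4G04223 was not called (log2 fold -0.2, FDR 0.351 in the authors' deposited table), and no peak overlapped AT5G35480 or ATMRU1. Of the 12 passing genes with the highest D, 7 overlapped a peak (81% over all nuclear genes). A peak higher in hda6 was carried by 5 of the 12 (2.21% over all nuclear genes).

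The sequences under the peaks of the 2 non-coding genes are shown because they mark where acetylation appeared in hda6: the central 300 bases of each peak, on the gene's strand, from the RefSeq TAIR10.1 assembly, at chr1:25057805-25058104 (plus strand) for AT1G67105 and chr5:15155092-15155391 (plus strand) for AT5G38005. Their GC content was 47.3% and 43.7%, and TATAAA was found on neither strand of either sequence.
AT1G67105: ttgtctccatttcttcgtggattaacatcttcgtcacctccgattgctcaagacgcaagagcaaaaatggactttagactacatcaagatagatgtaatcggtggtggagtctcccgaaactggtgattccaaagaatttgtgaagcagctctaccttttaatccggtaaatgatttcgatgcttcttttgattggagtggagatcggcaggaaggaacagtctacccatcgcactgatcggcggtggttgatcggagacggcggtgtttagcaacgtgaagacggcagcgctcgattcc
AT5G38005: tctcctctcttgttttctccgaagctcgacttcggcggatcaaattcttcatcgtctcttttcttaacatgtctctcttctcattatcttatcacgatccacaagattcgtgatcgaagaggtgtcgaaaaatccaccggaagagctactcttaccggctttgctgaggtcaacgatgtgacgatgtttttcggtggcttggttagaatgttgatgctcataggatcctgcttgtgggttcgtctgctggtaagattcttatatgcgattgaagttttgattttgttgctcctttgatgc

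**Figure D2:**
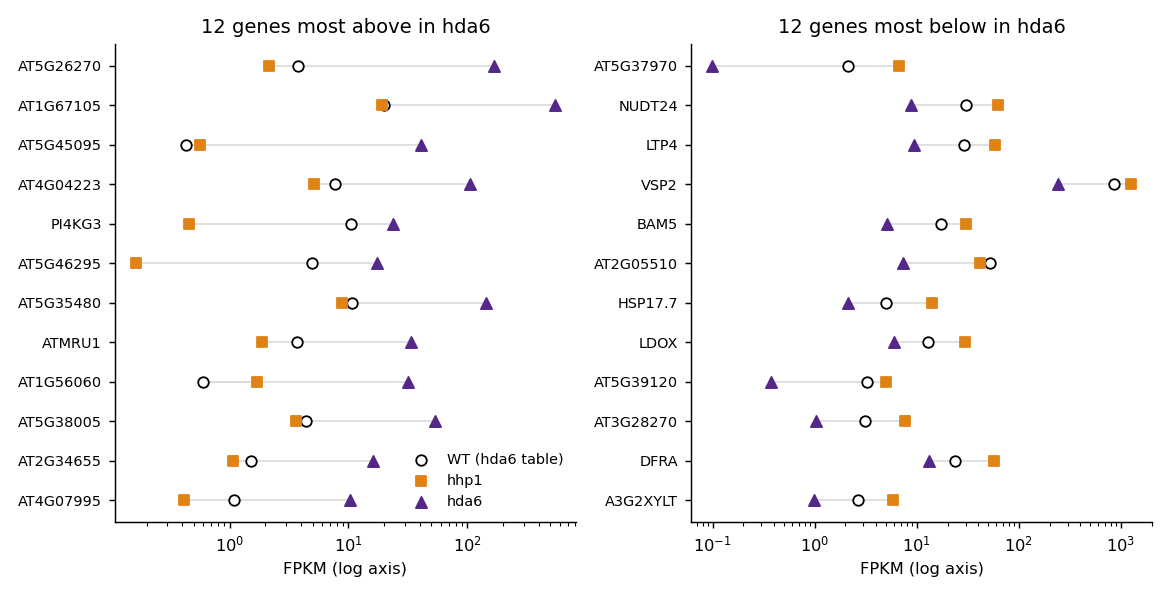
FPKM (log axis) of the 12 genes with the highest and the 12 with the lowest D among those that passed, with open circles for WT of the hda6 table, orange squares for hhp1 and purple triangles for hda6. On the left hda6 lies above WT in all 12 genes; on the right hda6 lies below WT in all 12 and hhp1 above WT in 11, the exception being AT2G05510.

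All 6 measured members of a list of orphan, tandem and other genes taken as HDA6 targets were higher in hda6 than in hhp1 (2.72% over all genes). Their median D was 2.61 against 0.01 over all genes. The list was drawn up with results of these samples known, so the count follows in part from the choice of members. QQS, an orphan gene found only in Arabidopsis thaliana and linked to starch content, was listed by the authors at 4.08 FPKM in WT, 19.1 in hhp1 and 139 in hda6, a difference of 2.89 ± 0.36 (adjusted p 2.95e-13, normal test over all genes). PCR1, named for plant cadmium resistance, was at 2.45, 15.8 and 113 FPKM in the same order, with a difference of 2.87 ± 0.36. Both were thus above WT in each mutant and highest in hda6. Reads of PCR1 and PCR2, and of AT5G41740 and AT5G41750, could in part be shared between the copies, so the split within each pair is uncertain.

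QQS and PCR1 differed in H3ac. The authors' signal over QQS was 5.21 RPKM in WT and 15.8 in hda6, while over PCR1 it was 6.36 and 7.35 RPKM, and no peak of the authors' table overlapped PCR1. The QQS peak (log2 fold 5.29 in the authors' deposited table) was centred 83 bp downstream of the gene start and reached into the promoter. The 250 bases before the QQS start, at chr3:12348797-12349046 (plus strand, TAIR10.1), are shown with the 117 bases under the peak in capitals.
QQS: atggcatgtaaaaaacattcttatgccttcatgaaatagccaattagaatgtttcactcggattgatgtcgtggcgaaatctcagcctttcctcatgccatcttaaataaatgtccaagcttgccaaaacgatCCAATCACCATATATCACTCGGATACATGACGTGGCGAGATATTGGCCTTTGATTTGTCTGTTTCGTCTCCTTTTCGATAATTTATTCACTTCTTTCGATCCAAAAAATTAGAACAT

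PI4KG3, a phosphatidylinositol 4-kinase gamma-like protein, moved in opposite directions. It was listed by the authors at 10.4 FPKM in WT, 0.455 in hhp1 and 23.7 in hda6, a difference of 5.73 ± 0.39 (adjusted p 2.18e-44, normal test over all genes). The authors' tables, which share the WT samples, also give it a log2 change of -3.53 in sant1234-null and -3.48 in mbd124. Its H3ac signal was 10.9 RPKM in WT and 10.3 in hda6. The neighbour AT5G24230 overlaps it by the last bases on the other strand and was at 2.98, 3.43 and 4.62 FPKM in WT, hhp1 and hda6, without separating. AT2G05540 was lower in hhp1 (7.59 FPKM) and higher in hda6 (65.2 FPKM) than in WT (22.5 FPKM). ABCG40, an ABC transporter known for abscisic acid uptake, was at 0.603 FPKM in WT, 0.304 in hhp1 and 3.27 in hda6.

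Several genes of salicylate defence were higher in hda6 than in hhp1. This hormone pathway runs from synthesis (ICS1, PBS3) through regulators (PAD4, CBP60G) to secreted pathogenesis-related proteins (PR1, PR2, PR5). Of 29 measured members 9 were higher in hda6, 1 was lower, and 19 did not pass (over all genes 2.72% were higher and 1.47% lower). The median D was 0.56 against 0.01 over all genes. BGL2 (PR2, a glucanase) was listed by the authors at 10.7 FPKM in WT, 35.4 in hhp1 and 198 in hda6, a difference of 2.51 ± 0.23 (adjusted p 4.28e-24, normal test over all genes). PR1 was at 8.70, 20.7 and 86.4 FPKM and PR5 at 3.96, 8.73 and 47.9 FPKM in the same order. The 3 PR genes were above WT in both mutants and highest in hda6.

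Upstream, the regulators CBP60G (7.75, 19.8 and 35.5 FPKM) and PAD4 (10.8, 15.2 and 24.6 FPKM) were likewise called higher in both mutants in the authors' tables and were highest in hda6. EDS16 (ICS1, isochorismate synthase) was at 7.75 FPKM in WT, 7.77 in hhp1 and 21.1 in hda6, a difference of 1.47 ± 0.23. PBS3, which conjugates isochorismate, was at 2.63, 1.93 and 6.70 FPKM. These 2 synthesis genes were raised in hda6 and not called in hhp1 in the authors' tables. WRKY70, a regulator at the node between salicylate and jasmonate, went the other way, at 85.8 FPKM in WT, 124 in hhp1 and 67.3 in hda6, a difference of -0.85 ± 0.22 (adjusted p 0.00491, normal test over all genes). WRKY33 (43.8, 100 and 157 FPKM) and the receptor gene NPR1 (20.3, 24.9 and 28.9 FPKM) did not pass.

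Jasmonate genes separated in both directions. Of 27 measured members 3 were higher in hda6 than in hhp1 and 6 lower (2.72% and 1.47% over all genes), at a median D of -0.06. The vegetative storage protein gene VSP2 was listed by the authors at 857 FPKM in WT, 1268 in hhp1 and 239 in hda6, a difference of -2.38 ± 0.26 (adjusted p 1.63e-17, normal test over all genes), and VSP1 at 90.7, 120 and 34.4 FPKM. LOX2 and AOC2, enzymes of jasmonate synthesis, fell to 190 and 145 FPKM in hda6 from 490 and 286 in WT, and were at 598 and 350 FPKM in hhp1. The synthesis gene LOX4 was instead highest in hda6, at 4.76, 6.38 and 24.0 FPKM for WT, hhp1 and hda6. PDF1.2A, a plant defensin of the jasmonate and ethylene branch, separated because it was low in hhp1: 5.47 FPKM in WT, 0.408 in hhp1 and 4.13 in hda6. Its copy PDF1.2C is near identical, so reads of the 2 genes could not be fully told apart.

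Genes of aliphatic glucosinolate synthesis separated mainly through low values in hhp1. These sulphur compounds, built from methionine, deter feeding insects. Of 20 measured members 11 were higher in hda6 than in hhp1 (2.72% over all genes) and 0 lower (1.47%), at a median D of 0.79. The authors call 14 of the 20 lower in hhp1 (3.29% over all genes). MAM1, which elongates the methionine side chain, was listed at 48.5 FPKM in WT, 5.62 in hhp1 and 33.3 in hda6, a difference of 2.60 ± 0.22 (adjusted p 1.02e-27, normal test over all genes). BCAT4, which starts the elongation, was at 44.9, 12.1 and 40.0 FPKM. CYP79F1, which forms the core oxime, was at 7.69, 0.363 and 3.13 FPKM, and the next enzyme CYP83A1 at 39.1, 15.5 and 34.2 FPKM.

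For BCAT4 and CYP83A1, hda6 was not called in the authors' tables, while MAM1 and CYP79F1 were called lower in hda6 as well, by less. The transcription factor genes did not separate: MYB28 was at 22.2, 28.2 and 23.3 FPKM and MYB29 at 2.39, 0.910 and 0.927 FPKM in WT, hhp1 and hda6. CYP79F1 and its copy CYP79F2 (9.19, 5.64 and 10.4 FPKM) are close in sequence, so their split is uncertain. In the indole branch, built from tryptophan, 3 of 8 measured members were higher in hda6 (2.72% over all genes) and 0 lower, at a median D of 0.49. CYP79B2 was at 28.9 FPKM in WT, 20.6 in hhp1 and 42.3 in hda6, a difference of 1.07 ± 0.22 (adjusted p 6.89e-05, normal test over all genes).

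Heat shock genes that separated were all lower in hda6 than in hhp1. Of 14 measured members 7 were lower (1.47% over all genes) and 0 higher (2.72%), at a median D of -0.81. HSP17.7, a small cytosolic heat shock protein, was listed by the authors at 4.94 FPKM in WT, 14.1 in hhp1 and 2.12 in hda6, a difference of -2.70 ± 0.32 (adjusted p 3.41e-14, normal test over all genes). HSP17.6C was at 2.34, 7.87 and 2.85 FPKM and the chloroplast HSP21 at 0.657, 1.92 and 0.334 FPKM. For these small heat shock proteins hhp1 was above WT. HSFA2, a heat shock transcription factor, and CLPB1 (HSP101), a chaperone that resolves aggregates, passed through low values in hda6 instead, at 3.43, 3.98 and 1.73 FPKM and at 8.62, 9.69 and 5.09 FPKM. HSP90-1 (18, 29.0 and 20.9 FPKM) did not pass. Levels were low throughout, and no member but MED37C (HSP70) and HSP90-1 exceeded 15 FPKM in any of the 3 genotypes.

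Heat shock factors bind sites that hold the motif GAANNTTC (N any base). It was found on either strand within 250 bases before the start in 6 of the 14 heat shock genes, among them HSFA2, HSP17.6C and HSP21 of the 7 that were lower in hda6 and HSFA7A, HSP17.4A and DREB2A of the 7 that did not pass, against 9.4% of 20858 promoters of the genes compared. It was also in 13.8% of 545 promoters of nuclear genes higher in hda6, in 10.7% of 307 promoters of genes lower in hda6, and in 3 of the 9 salicylate members higher in hda6. The promoters of HSP17.6C (chr1:19980049-19980298, plus strand) and HSP21 (chr4:13819972-13820221, minus strand) are shown from TAIR10.1. Only the letters matching GAANNTTC are in capitals, and a bound site may be longer. In both the matched letters were the same.
HSP17.6C: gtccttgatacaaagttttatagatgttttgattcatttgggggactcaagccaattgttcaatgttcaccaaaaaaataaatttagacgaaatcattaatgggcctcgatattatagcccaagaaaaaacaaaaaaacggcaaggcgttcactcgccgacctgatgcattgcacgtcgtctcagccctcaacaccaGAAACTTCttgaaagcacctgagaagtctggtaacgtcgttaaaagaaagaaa
HSP21: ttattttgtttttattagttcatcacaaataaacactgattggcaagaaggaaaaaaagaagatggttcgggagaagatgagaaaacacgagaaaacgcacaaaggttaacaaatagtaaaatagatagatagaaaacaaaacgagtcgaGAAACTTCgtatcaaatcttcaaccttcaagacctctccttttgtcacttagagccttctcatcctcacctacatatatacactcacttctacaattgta

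The W-box core TTGAC, bound by WRKY factors, was found on either strand in 54.5% of the promoters of nuclear genes higher in hda6, in 45.3% of those lower and in 45.2% of all, but in 3 of the 9 salicylate members higher in hda6 (33.3%). The G-box CACGTG was found in 4.95%, 9.45% and 7.14% in the same order, and in 6 of the 17 anthocyanin genes described next (35.3%). TATAAA was found in 49.9%, 50.5% and 45.8%, and in 10 of the 14 heat shock genes (71.4%). These shares describe letters in a window, and no test was made.

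Anthocyanin genes were lower in hda6 than in hhp1 in 9 of 17 measured members (1.47% over all genes) and higher in 0 (2.72%), at a median D of -0.80; the list was added after DFRA, LDOX and A3G2XYLT had been seen among the most separated genes. Anthocyanins are red and purple flavonoid pigments. DFRA (dihydroflavonol reductase) was listed by the authors at 23.7 FPKM in WT, 57.2 in hhp1 and 13.2 in hda6, a difference of -2.08 ± 0.22 (adjusted p 1.45e-18, normal test over all genes). LDOX, the next enzyme, was at 13, 29.7 and 5.95 FPKM, and the sugar transferase A3G2XYLT at 2.64, 5.85 and 0.985 FPKM. All 3 were above WT in hhp1 and below it in hda6. MYB75, a transcription factor that drives the pathway, was near WT in hhp1 (4.54 against 4.1 FPKM) and low in hda6 (0.934 FPKM). CYP75B1, a flavonoid hydroxylase, passed at 5.40, 9.19 and 4.76 FPKM. CHS, chalcone synthase, at 129, 215 and 139 FPKM, and FLS1, of the flavonol branch, at 33.6, 37.9 and 34.7 FPKM, did not.

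**Figure D3:**
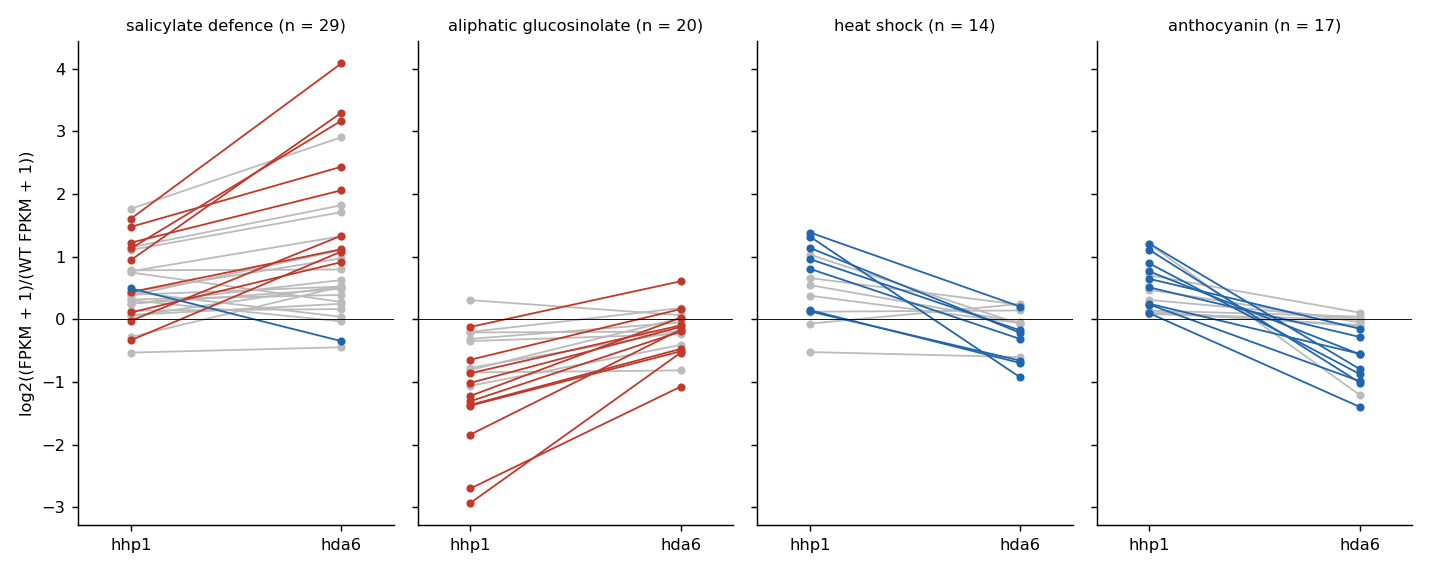
Log2 change against WT (1 added to each FPKM) of each measured member of 4 gene lists in hhp1 and hda6, joined by a line; red and blue lines are members that passed the difference test and grey lines the others. Coloured lines rise from hhp1 to hda6 for 9 of 29 salicylate and 11 of 20 aliphatic glucosinolate members, and fall for 1 salicylate, 7 of 14 heat shock and 9 of 17 anthocyanin members.

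Cold and touch genes were mixed. Of 14 measured abscisic acid and cold genes 1 was higher in hda6 (2.72% over all genes) and 3 lower (1.47%), at a median D of 0.00. COR15A, a chloroplast protein that protects membranes in the cold, was listed by the authors at 245 FPKM in WT, 425 in hhp1 and 124 in hda6, a difference of -1.75 ± 0.27 (adjusted p 1.63e-08, normal test over all genes). DREB1B (CBF1), the activator of such genes, moved the other way at 1.83, 0.882 and 3.51 FPKM. Of 13 touch and rapid-response genes 2 were higher and 2 lower, at a median D of -0.12. EXO, which acts in cell expansion, was at 533, 307 and 142 FPKM, lower in both mutants and lowest in hda6.

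Flowering genes separated at single loci, in counts too small to set apart from the 4.2% that passed over all genes. Among 17 floral repressors only MAF4, a relative of FLC, passed: it was listed by the authors at 1.36 FPKM in WT, 1.62 in hhp1 and 9.63 in hda6, a difference of 2.60 ± 0.45 (adjusted p 1.67e-06, normal test over all genes), and its H3ac signal was 3.85 RPKM in WT and 6.54 in hda6. FLC was at 1.39, 3.04 and 5.11 FPKM and MAF5 at 3.09, 3.64 and 15.7 FPKM, and neither passed. Among 11 floral promoters SOC1 passed, at 28.1, 28.4 and 14.2 FPKM. The median D was -0.10 for the repressors and -0.36 for the promoters.

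Among genes of the chromatin machinery ROS1 passed, a DNA demethylase listed at 12.0 FPKM in WT, 12.7 in hhp1 and 4.69 in hda6. It was the 1 gene that passed among 21 DNA methylation genes (4.2% over all genes). At that share, lists this short could hold few passing genes or none. None of 10 genes assigned to the complex, 14 histone deacetylases or 11 clock genes passed, at median D values of 0.02, -0.01 and -0.04. The complex list holds AT5G12010 as the Harbinger gene, an assignment that the labels do not give. AT3G55350 is not in that list, and with a D of 1.32 it did not pass either. AT1G55050, one of the SANT-domain genes, was listed at 0.201 FPKM in WT, 1.99 in hhp1 and 1.59 in hda6: a large change shared by both mutants, which the comparison of the 2 does not show.

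**Figure D4:**
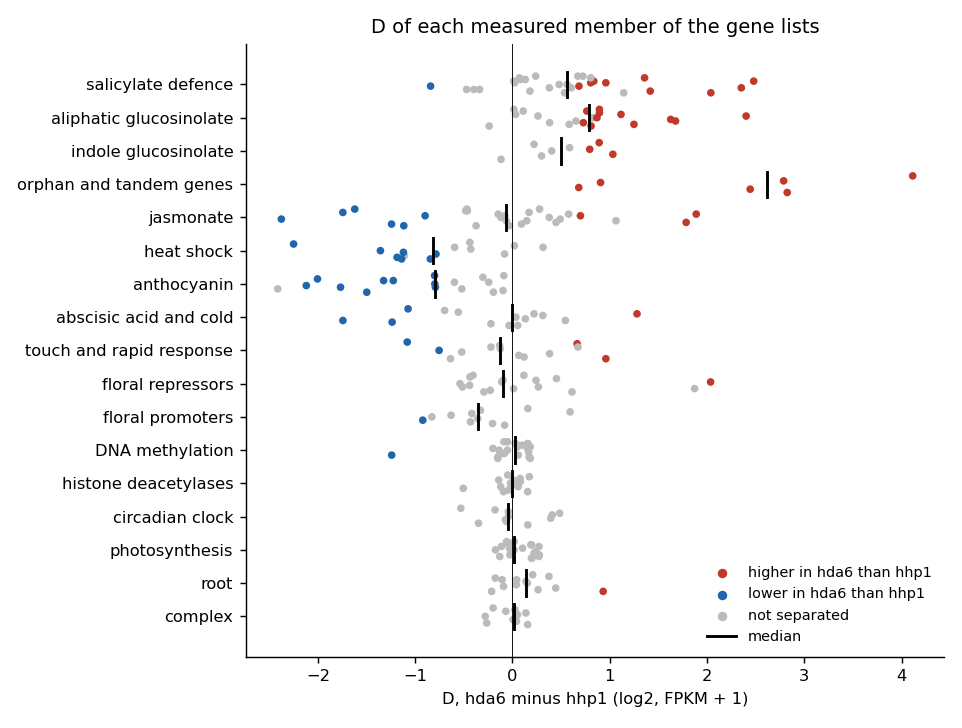
D (hda6 minus hhp1, log2 with 1 added to each FPKM) of each measured member of 17 gene lists, in red or blue where the gene passed the difference test and grey where it did not; black bars are list medians and points are spread vertically only to be visible. Points lie right of 0 for 25 of 29 salicylate, 19 of 20 aliphatic glucosinolate and all 6 orphan or tandem genes, and left of 0 for 12 of 14 heat shock and all 17 anthocyanin genes, most of them grey in the salicylate list.

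Organelle genes were singled out after their values were seen. Of 50 chloroplast genes 19 were higher in hda6 than in hhp1, and of 15 mitochondrial genes 4 (2.72% over all genes), with 0 lower in either (1.47%). The authors call 22 of the 50 chloroplast genes lower in hhp1 (3.29% over all genes) and 1 lower in hda6 (4.91%). PSAA and PSAB, which encode the photosystem I core, were listed at 32.2 and 35.3 FPKM in WT, 12.6 and 13.3 in hhp1, and 32.3 and 36.1 in hda6. The ribosomal RNA RRN26 of the mitochondrion was at 187, 80.0 and 259 FPKM. In these genes hhp1 was low and hda6 lay near WT or above it. Chloroplast mRNAs were listed low in WT, with RBCL at 19.2 and PSBA at 29.7 FPKM against 6123 for the nuclear RBCS-1A. Whether the low values in hhp1 came from the preparation of the libraries was not tested.

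H3ac was then compared between the sets of separated nuclear genes, as a description without a test. The median log2 H3ac change of hda6 against WT was -0.03 over 20859 genes, 0.08 over the 545 nuclear genes higher in hda6 than in hhp1 and 0.14 over the 307 lower. An H3ac peak called higher in hda6 by the authors' DiffBind table overlapped 10.6% of the first set and 2.28% of the second, against 2.21% of all. A peak called lower overlapped 10.5% and 5.54%, against 27.3%. Any H3ac peak overlapped 80.7% and 66.8%, against 81%, so fewer genes of the second set could carry a called peak. The share with a peak called higher was thus larger at genes higher in hda6 than over all genes. The share with a peak called lower was smaller in both sets. Such calls compare signal, and a peak called lower may still be present in hda6.

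Splitting the genes higher in hda6 by the authors' calls, a split chosen after the data were seen, gave different shares. Of 318 called higher in hda6 and not called in hhp1, 45 (14.2%) had a peak higher in hda6, and of 80 called higher in both mutants 10 (12.5%) had one. Of 84 nuclear genes called lower in hhp1 and not called in hda6, 1 (1.19%) had such a peak, and their median H3ac change was -0.14. The series holds no H3ac sample of hhp1, so H3ac in that mutant is unknown.

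**Figure D5:**
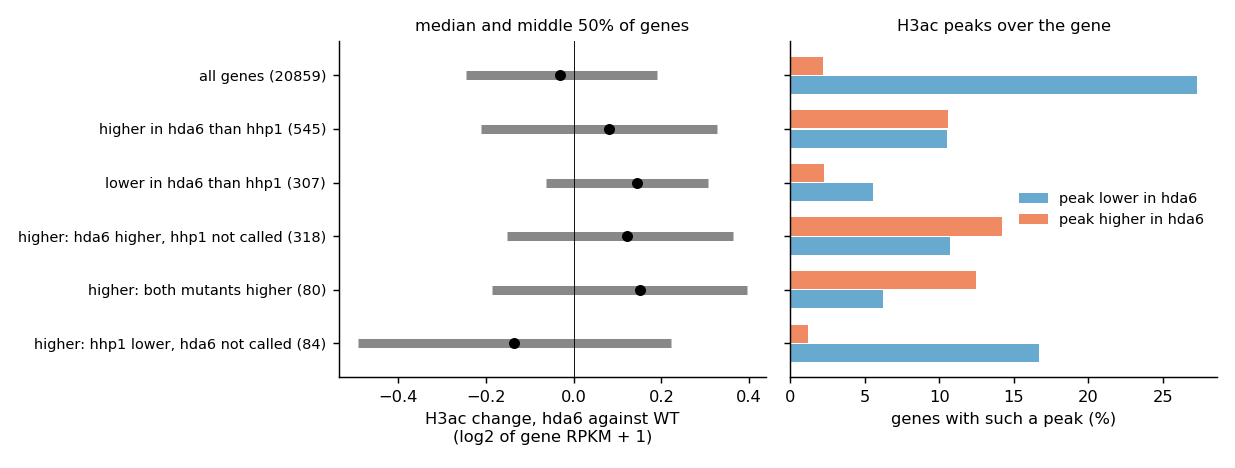
Left, log2 change of H3ac signal over the gene in hda6 against WT (1 added to each RPKM), as median (point) and middle 50% of genes (bar); right, percent of genes overlapped by an H3ac peak lower (blue) or higher (orange) in hda6 at FDR under 0.05. Gene numbers are in brackets; 10.6% of genes higher in hda6 than in hhp1 and 2.21% of all genes carry a peak higher in hda6.

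Transposable elements (TEs) near the separated genes were counted without a test. A TE of the authors' TE tables overlapped or lay within 1 kb of 41.7% of the nuclear genes higher in hda6 and 48.2% of those lower, against 33.7% of all. The TE-covered share of the 200 kb around a gene had medians of 7.56%, 8.66% and 6.23%. Of 27 TEs overlapping a separated gene and tested in both TE tables, the authors call 7 higher in hda6 (5.62% of the 427 tested TEs) and 3 lower (6.56%), and 4 higher (2.58%) and 3 lower (4.92%) in hhp1. Such TEs may share reads with the gene they overlap, so their calls are not separate evidence.

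Separated genes were spread over the 5 chromosomes, from 3.66% of the genes on chromosome 3 to 4.34% on chromosome 4. Over 104 windows of 1 Mb with at least 50 genes the median was 3.93% and the highest 13.9%, in 17 genes of the window from 10 to 11 Mb of chromosome 3. It held 10 genes higher and 7 lower in hda6, among them AT3G28270, at 3.11 FPKM in WT, 7.57 in hhp1 and 1.02 in hda6, and RPP2C and LBD26, which rose in hda6.

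Genes changed alike in both mutants fall outside the separation. The 4 genes listed at 0 in WT of both tables with the highest D had values near each other in the mutants. AT3G26539 was at 8.63 FPKM in hhp1 and 11.4 in hda6, and the authors call it higher in both. AT3G04085 was at 6.30 and 5.29, AT2G07805 at 2.47 and 2.42, and AT1G70175 at 1.21 and 0.814. These last genes are called in neither mutant. They overlap genes on the other strand at 13.7, 3.53 and 4.48 FPKM in WT, so their reads may be shared. DREB1F was listed by the authors at 1.10 FPKM in WT, 0.158 in hhp1 and 0.194 in hda6, and AT3G53250 at 11.3, 3.64 and 3.08 FPKM. The 2 comparisons share the WT samples, so an error in WT would move both changes together, and no count of shared changes is given as a result.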

How the data were processed

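RNA-seq and H3ac ChIP-seq reads were processed by the authors; the submitters' processing notes name Bowtie2 2.4.1, TopHat2 2.0.12, DiffBind, Cuffdiff, Cufflinks 2.2.1 and MACS2 2.1.1.20160309 with the build TAIR10, without settings. No source used here says whether counting used strand, so reads of overlapping genes may be shared. The deposited tables give 1 FPKM per genotype, a test statistic (a score), a p-value and a q-value per gene, with status OK where a test was made. Raw read count and RPKM per gene for H3ac, and log2 concentrations and folds with FDR per peak, were likewise deposited. RNA depth is unknown; mapped H3ac reads were 70.1 M in WT and 70.8 M in hda6. The labels call the samples biological replicates; separate growths are not stated, so the p-values cover the spread between samples, which may be technical. WT values printed are those of the hda6 table, whose median ratio to those of the hhp1 table was 0.981.

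Log2 changes were computed from FPKM without a pseudocount for the test and with 1 for D. Standard errors were the change divided by the statistic of the authors multiplied by 1.74. This factor was found by matching statistics to their p-values, for p-values above 0.0001 only. Variances of the 2 changes were added, although the WT error cancels, and the normal test was adjusted by Benjamini-Hochberg over 20853 genes. The 71 genes listed at 0 in a sample or without a statistic have no test. A simulation drew normal errors with the same standard errors that the test uses. It could therefore not check the factor of 1.74 or the normal tail. Gene bounds come from the deposited H3ac table, since Cuffdiff loci span several genes; they equal RefSeq TAIR10.1 bounds in 32522 of 32538 nuclear genes. Overlap of 1 bp counted for peaks and TEs. Python 3.11.15, numpy 2.4.6, pandas 2.3.3, scipy 1.17.1 and matplotlib 3.10.9 were used.

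Genes named are the 12 highest and 12 lowest D among those passing, list members passing (up to 8 a list) with up to 2 that do not, genes called in opposite or the same direction with the largest changes, the 4 highest D among genes listed at 0 in WT, and the complex. Others, chosen after their values were seen, include NPR1, FLC, MAF5, MYB28, MYB29, CYP79F2, the transposase-like and organelle genes and those of the chromosome 3 window. Members and lists were chosen with earlier results of these data known. The lists of silenced reporters and seed maturation had 0 members tested in both tables, and that of floral organs 2, neither of which passed.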

Additional observations from a re-analysis of the deposited data

Results flagged for a closer look

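Outside the genes compared, 526 genes had a test in hda6 only, and the authors call 189 of them higher in hda6; 99 of these were listed at 0 in WT. The non-coding gene AT2G15555 was listed at 0 FPKM in WT, 0.0613 in hhp1 and 89.6 in hda6, and the ovate family gene ATOFP9 at 0, 0 and 55.6 FPKM. Of 173 genes with a test in hhp1 only, the authors call 4 higher in hhp1. The authors call 0 of the 526 genes lower in hda6. The tables share the WT samples, so having a test in hda6 only was not independent of the level in hda6. The 189 are therefore not compared with the 6.53% called higher in hda6 over all genes. How many of the 189 were also near 0 in hhp1 was not counted. Thus D leaves out genes such as AT2G15555 and ATOFP9, listed at or near 0 FPKM in WT and hhp1 and far higher in hda6.

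The 22 genes called lower in hhp1 and higher in hda6 and the 28 called higher in hhp1 and lower in hda6 all pass the difference test. They are the genes with a test that the authors called in opposite directions, and PI4KG3, DFRA, LDOX and HSP17.7 are among them. Genes not called in both mutants can also differ in sign, such as VSP1, with log2 changes of 0.37 in hhp1 and -1.40 in hda6.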

How the results depend on the processing

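No paired analysis was possible because the tables hold no value per replicate, and leaving out single replicates was not possible for the same reason. The count of separated genes depended most on the error of the difference: with the authors' statistic unscaled 73 genes were higher and 21 lower in hda6, with the variance halved 1398 and 926, with Bonferroni adjustment 191 and 74, and with an absolute D of at least 1 also required 292 and 89. A filter at a mean FPKM of 1, subtraction of the median difference and leaving out overlapping genes (added after the data were seen: 504 and 289) kept both counts within 1.5 times. Genes at D of at least 1 and at most -1 numbered 729 and 293 with a pseudocount of 0.1 and 88 and 33 with 10, so D of low genes rests on the pseudocount. At q under 0.01 the authors' calls were 352 higher and 419 lower in hhp1 and 628 lower in hda6, and opposite calls numbered 13 (lower in hhp1) and 17 (higher in hhp1). At an FDR under 0.01, peaks higher in hda6 overlapped 6.61% of genes higher in hda6 and 0.977% of those lower, against 1.11% of all nuclear genes, and peaks lower in hda6 overlapped 3.12% and 1.63%, against 11.9%. TEs overlapped 19.3% and 19.2% of the 2 sets (13.1% of all nuclear genes) and lay within 2 kb of 51.0% and 59.6% (42.7%). Among 126 named genes with a test, no direction turned; 42 lost the call with the statistic unscaled and 27 with Bonferroni adjustment. RNA depth is unknown, so no limit from depth can be given.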

Other observations

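Some of the most extreme D values belong to genes listed at 0 in a mutant, for which no standard error exists. The authors called some of these genes, such as AT1G04323 (D -3.09, lower in hda6), but none of those named next. AT4G04125 was listed by the authors at 52.9 FPKM in WT, 0 in hhp1 and 158 in hda6, and MRD1 at 9.66, 0 and 28.9 FPKM. AT5G01255 was the reverse, at 7.89 FPKM in WT, 51.3 in hhp1 and 0 in hda6. Whether a listed 0 is a failed estimate cannot be read from tables with 1 value per genotype.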
